A study of Mus musculus with 2 samples.

Results

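The miR-302 cluster, which ends with miR-367, and the miR-290 cluster, which ends with miR-295, were examined in the small RNA of E9.5 wildtype (WT) mouse hearts. Members were the precursor rows whose miRBase name, without the arm, was miR-302a to miR-302d, miR-367, miR-290a, miR-290b, miR-291a, miR-291b, miR-292 with or without a letter, miR-293, miR-294 or miR-295. Each replicate listed 11 such rows, of 568 rows in replicate 1 and 523 in replicate 2. Paired by position, they made 12 entries (precursors) with 11 names, of 620 entries in all, 4 in the miR-302 cluster and 8 in the miR-290 cluster. Of the 12, 10 were listed in both replicates. MiR-302a, miR-290b and miR-292b had no row in the tables used here, so no value is given for them.

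Both samples were embryonic hearts of C57BL/6 WT mice at embryonic day 9.5, with no treatment named, and together they form the 1 group of this series. The number of embryos in each library is not given in the sources used here, and the spread between the 2 samples may be technical. Replicate 1 held 4942257 mature reads, those on the arm that the table takes as mature, and replicate 2 held 4806179, each summed over all entries. Reads listed at several entries count more than once in these sums, which are the total for RPM and, unless stated, for the member shares. The opposite, star arm had more reads than the mature arm in 8 of 568 entries of replicate 1 and 11 of 523 of replicate 2, none of them members. Levels are mature reads per 1000000 mature reads of the library (RPM). On this scale 3 reads, the floor for detection, are 0.607 RPM in replicate 1 and 0.624 RPM in replicate 2. Marker miRNAs often have several entries that hold the same reads, so their shares are given with each mature sequence counted once, in the list and in the total. The labelled tissue carried its markers, with 15.9% ± 0.48 of mature reads (SD, n = 2) on miR-1a, miR-133a, miR-208a, miR-208b and miR-499. MiRNAs listed as markers of other cell types held 10.1% ± 1.0 (smooth muscle, miR-143 and miR-145a), 3.95% ± 0.0064 (endothelium, miR-126a), 0.171% ± 0.024 (erythroid, miR-451a, miR-144 and miR-486a), 0.0668% ± 0.013 (liver, miR-122), 0.0377% ± 0.00056 (epithelium, miR-200a, miR-200b, miR-200c, miR-141 and miR-429) and 0.0058% ± 0.0011 (neural, miR-9 and miR-124; SD, n = 2 for each). Whether reads of miR-143, miR-145a or the others came from the cell type named was not tested. Of the reads of the erythroid list, miR-486a held 5456 of 5584 in replicate 1 and 6380 of 6580 in replicate 2, and miR-451a 128 and 127. Replicate 1 did not list miR-144, replicate 2 listed neither miR-208a, miR-141 nor miR-124, and miR-124 had 2 reads at each of its entries in replicate 1, under the floor. These samples are whole hearts, so a smaller number of cells with a miRNA and less of it per cell cannot be told apart.

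Both clusters are best known from pluripotent cells. Each is transcribed as 1 long RNA that the Drosha-DGCR8 microprocessor cuts into several hairpins, and Dicer then frees a short duplex from each hairpin. The miR-290 cluster is the leading miRNA locus of mouse embryonic stem cells and the early embryo, and the miR-302 cluster becomes prominent as cells move towards the epiblast state around implantation. Their shared seed represses inhibitors of the G1 to S transition such as Cdkn1a, and the miR-302 cluster has also been linked to the proliferation of cardiomyocytes. A miRNA finds its targets mainly through the seed, nucleotides 2 to 8 counted from its 5′ end, so the mature sequences are shown first. They are the consensus sequences of the deposited tables, written 5′ to 3′ with the seed in capitals, and are grouped by that seed.

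The first set has the seed AAGUGCU and is shown because it is the seed that the largest number of members, from both clusters, share.
miR-302b-3p: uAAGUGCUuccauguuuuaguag
miR-302d-3p: uAAGUGCUuccauguuugagug
miR-291a-3p: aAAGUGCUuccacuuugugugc
miR-294-3p: aAAGUGCUucccuuuugugug
miR-295-3p: aAAGUGCUacuacuuuugaguc

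The second set is shown because its seeds are not AAGUGCU, either through a shifted start or through other bases.
miR-302c-3p: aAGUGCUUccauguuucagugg
miR-291b-3p: aAAGUGCAuccauuuuguuug
miR-293-3p: aGUGCCGCagaguuuguagug
miR-290a-5p: aCUCAAACuaugggggcacuu
miR-292a-5p: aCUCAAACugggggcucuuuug
miR-367-3p in replicate 1: aUUGCACUuuagcaauggug
miR-367-3p in replicate 2: aAUUGCACuuuagcaauggug

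All 12 mature sequences had a RefSeq entry (table of build GRCm38.p6), and 11 began at the same base as it. The exception was miR-367-3p in replicate 1, whose consensus began 1 base later, which changes its seed from AUUGCAC to UUGCACU. At the 3′ end, 4 sequences ended with the RefSeq base and the others 1 base earlier. No entry outside the members had the same mature sequence as a member. Whether single reads of a member were also counted at a further entry was not tested.

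The precursors of the miR-302 cluster occupy 562 bases of chromosome 3 (mm9, plus strand), from 127248156 to 127248717. They are in intron 8 (127247197 to 127248743) of Larp7, a gene for a protein that binds the 7SK RNA, which GENCODE vM1 places on the minus strand from 127239872 to 127256266. Within this intron miR-302b starts at 127248156, miR-302c at 127248288, miR-302d at 127248546 in replicate 1 and 127248547 in replicate 2, and miR-367 at 127248660. The annotated gene Mir302a (127248414 to 127248482) lies between miR-302c and miR-302d. Those of the miR-290 cluster occupy 2198 bases of chromosome 7, also on the plus strand, from 3218640 to 3220837, outside any protein-coding gene of the annotation. The nearest of these downstream is Nlrp12, an innate immune receptor gene on the minus strand that occupies 3221511 to 3249741. The nearest upstream is AU018091, also on the minus strand, whose last base in genome order is 3169204. In genome order miR-290a starts at 3218640, miR-291a at 3218933, miR-292a at 3219201, miR-291b at 3219495, miR-293 at 3220357, miR-294 at 3220656 and miR-295 at 3220780. Neighbouring precursors were 55 to 1095 bases apart, counting those listed in both replicates.

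The members held 0.547% ± 0.0061 of each library's mature reads, or 0.749% ± 0.0054 with each mature sequence counted once (SD, n = 2 for each). They had 27257 mature reads in replicate 1 and 26089 in the other. The miR-302 cluster had 19907 and 18804 of them, making up 0.403% of replicate 1 (95% Wilson interval 0.397% to 0.408%) and 0.391% of replicate 2 (0.386% to 0.397%). The miR-290 cluster had 7350 and 7285 mature reads, a share of 0.149% (0.145% to 0.152%) and 0.152% (0.148% to 0.155%). In each replicate the chromosome 3 cluster was the higher one, by a ratio of 2.71 in replicate 1 and 2.58 in replicate 2 (mean 2.64 ± 0.090, SD, n = 2). This ratio depends on the part of the hairpin counted, and with all reads of the precursor it was 2.21. With 2 samples of 1 group no test over samples was possible, and the intervals cover counting error only.

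Within the miR-302 cluster the reads lay almost wholly on miR-302b-3p and miR-302d-3p. MiR-302b-3p had 9949 mature reads in replicate 1 and 9844 in replicate 2, or 2013 and 2048 RPM. MiR-302d-3p had 8603 and 7741 mature reads, or 1741 and 1611 RPM. MiR-302b-3p was higher than miR-302d-3p in both replicates, by 1.16 and 1.27 times, and neither the replicates nor their intervals overlapped. The sequences of both are identical for 16 bases from the AAGUGC of the seed and differ at 2 of 21 aligned bases (90.5% identity), all of them towards the 3′ end.

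MiR-302c-3p, whose hairpin lies between these, had 1281 and 1158 mature reads, or 259 and 241 RPM. That was 8.13 ± 0.52 times below miR-302b-3p (SD, n = 2), although 20 of 22 aligned bases are the same. Its mature sequence began 1 base further along than those of miR-302b-3p and miR-302d-3p, so its seed reads AGUGCUU. MiR-367-3p, the last hairpin of the cluster, had 74 and 61 mature reads, or 15.0 and 12.7 RPM, and miR-302b-3p exceeded it 134 times in replicate 1 and 161 times in replicate 2. As shares of the cluster, miR-302b-3p took 51.2% ± 1.7, miR-302d-3p 42.2% ± 1.4, miR-302c-3p 6.30% ± 0.20 and miR-367-3p 0.348% ± 0.033 (SD, n = 2 for each).

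Within the miR-290 cluster the highest members were miR-292a-5p and miR-293-3p, neither of which has the AAGUGCU seed. MiR-292a-5p had 3514 and 3571 mature reads, or 711 and 743 RPM. MiR-293-3p had 2173 and 2119 mature reads, or 439.7 and 440.9 RPM. Of the mature reads of the cluster, 48.4% ± 0.85 were on miR-292a-5p and 29.3% ± 0.34 on miR-293-3p (SD, n = 2), more than on all its other members.

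The AAGUGCU members of this cluster were lower and close to each other. MiR-291a-3p had 608 and 562 mature reads (123 and 117 RPM), miR-295-3p 516 and 505 (104.4 and 105.1 RPM), and miR-294-3p 468 and 474 (94.7 and 98.6 RPM). The replicates of these 3 did not overlap, and their order was the same in both replicates. The confidence intervals of miR-291a-3p and miR-295-3p overlapped in both replicates, as did those of miR-295-3p and miR-294-3p. Such an overlap is no test of a difference, and the order of these members was not tested. MiR-290a-5p, the first hairpin, had 58 and 37 mature reads, or 11.7 and 7.70 RPM. At this depth its intervals overlapped those of miR-367-3p in both replicates.

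**Figure D1:**
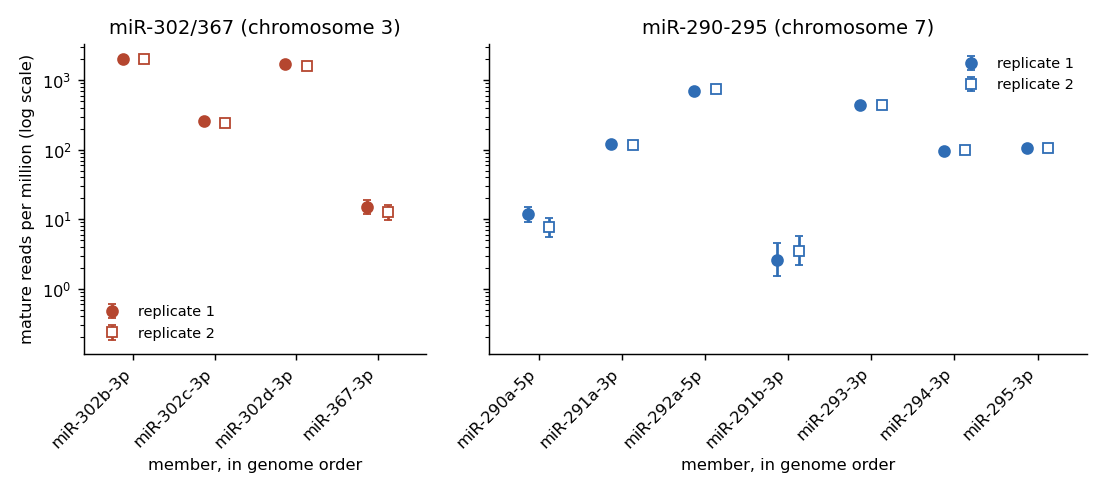
Level (RPM, log scale) of each member in genome order, with filled circles for replicate 1, open squares for replicate 2 and 95% Wilson intervals as bars. On chromosome 3 miR-302b-3p and miR-302d-3p stand highest, between 1611 and 2048 RPM, with miR-302c-3p lower between them, and on chromosome 7 miR-292a-5p and miR-293-3p stand above the other members.

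MiR-291b was placed in a different hairpin in each replicate, a larger difference than the 1 base at the start of the miR-302d hairpin. In replicate 1 the hairpin ran from 3219495 to 3219550, with 13 mature reads on the 3p arm and 13 on the 5p arm. In replicate 2 it ran from 3219530 to 3219610, with 17 mature reads and 0 star reads. The mature sequence and its position, 3219530 to 3219550, were the same in both, at 2.63 and 3.54 RPM. The hairpin of replicate 1 thus joins this sequence to the bases upstream of it and that of replicate 2 to those downstream, with a miRDeep2 score of 14 in the former and -3.1 in the latter. MiR-291b-3p was the lowest member, above the floor of 3 reads in both replicates.

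**Figure D2:**
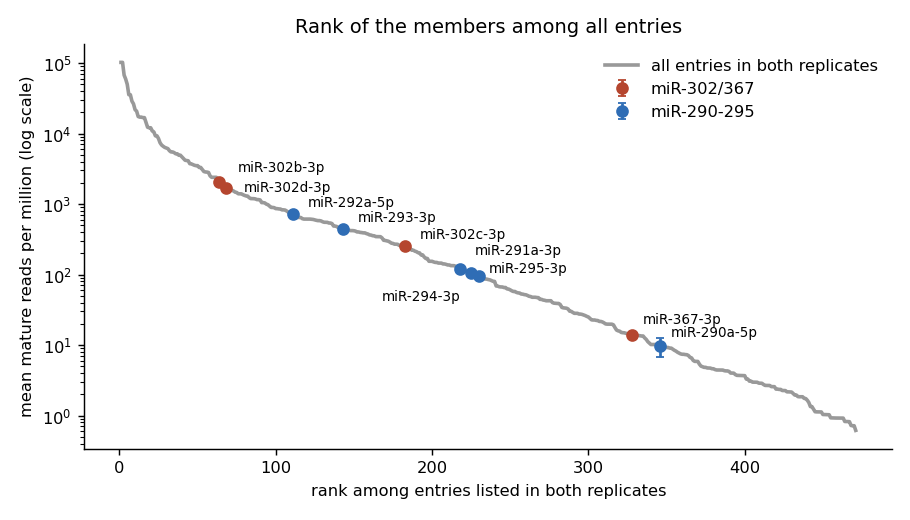
Mean RPM (log scale) against rank for the 471 entries listed in both replicates (grey line), with the 10 members among them as points and the SD over 2 replicates as bars. Members are spread from rank 64 to rank 346, and the SD of most is smaller than the point.

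Among the 471 entries listed in both replicates, whose median was 84.9 RPM, 8 of the 10 members lay above the median. MiR-302b-3p ranked 64, miR-302d-3p 68, miR-292a-5p 111, miR-293-3p 143, miR-302c-3p 183, miR-291a-3p 218, miR-295-3p 225, miR-294-3p 230, miR-367-3p 328 and miR-290a-5p 346. These ranks count entries with the same mature sequence separately. With each mature sequence ranked once, the members moved up, miR-302b-3p to 47, miR-302d-3p to 51, miR-292a-5p to 84 and miR-293-3p to 108. MiR-302c-3p moved to 141, miR-291a-3p to 168, miR-295-3p to 174, miR-294-3p to 179, miR-367-3p to 264 and miR-290a-5p to 275. The entries nearest to miR-302b-3p (2031 RPM ± 24.9) were miR-758-3p (2041 RPM ± 127.9) and miR-152-3p (1995 RPM ± 92.9), and those nearest to miR-302d-3p (1676 RPM ± 91.97) were miR-466i-5p (1713 RPM ± 341) and miR-543-3p (1669 RPM ± 196.9; SD, n = 2 for each). These neighbours differed from the members by less than their spread between replicates, so the ranks are approximate. Ahead of miR-293-3p (440.3 RPM ± 0.86) stood miR-16-5p (458.6 RPM ± 36.8), and behind miR-292a-5p (727.0 RPM ± 22.6) stood let-7g-5p (672.5 RPM ± 9.36; SD, n = 2 for each), both of them widely expressed miRNAs. Cardiac miRNAs lay on both sides of miR-302b-3p, with miR-133a-3p above it (12293 and 11876 RPM at each of its 2 entries), and miR-499-5p (1672 and 1469 RPM) and miR-208b-3p (380 and 329 RPM), both encoded in introns of myosin genes, below it.

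The reads on each arm of the hairpins were summed over each cluster and then taken by member. In the miR-302 cluster the 3p arm carried nearly all reads, and the 5p arm had 0.545% of the reads of both arms in replicate 1, with a 95% Wilson interval of 0.452% to 0.656%, and 0.503% (0.411% to 0.614%) in the other. In the miR-290 cluster the 5p arm had 45.2% (44.2% to 46.3%) and 45.5% (44.5% to 46.6%). Most of that came from miR-292a (3514 and 3571 of the 5p reads), where 5p reads made up 76.8% of 4578 reads in replicate 1 and 76.6% of 4660 in replicate 2 (mean 76.7% ± 0.090, SD, n = 2).

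Because its lesser arm was also well read, miR-292a held 66.5% of the star reads of all members in replicate 1 and 69.8% in replicate 2. Both of its arms, and the 5p arm of miR-293 beside them, are shown because they are the cases where the lesser arm was read well above 100 times in each replicate.
miR-292a-5p, 3514 and 3571 reads: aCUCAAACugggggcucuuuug
miR-292a-3p, 1064 and 1089 reads: aAGUGCCGccagguuuugagug
miR-293-3p, 2173 and 2119 reads: aGUGCCGCagaguuuguagug
miR-293-5p, 305 and 268 reads: aCUCAAACugugugacauuu
Both hairpins thus gave a 5p product with the seed CUCAAAC, which miR-290a-5p has as well, and they differed in the arm that was in excess. The RefSeq table had no entry for miR-292a-3p, so its first base, and with it its seed, was not compared.

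In miR-293 the 5p arm had 11.8% ± 0.76 and in miR-291a 13.8% ± 0.39 of the reads of both arms (SD, n = 2). The last hairpins of the cluster had few 5p reads, at 1.36% ± 0.43 for miR-294 and 1.54% ± 0.023 for miR-295 (SD, n = 2), less than miR-302c on chromosome 3. MiR-290a had 0 reads of 58 and 37 on its 3p arm, where the floor of 3 reads would be a 3p share of 5.17% and 8.11% and the 95% Wilson interval reaches 6.21% and 9.41%. On chromosome 3, the 5p share was 0.192% ± 0.0014 for miR-302b, 0.314% ± 0.080 for miR-302d and 4.47% ± 0.20 for miR-302c (SD, n = 2 for each), and miR-367 had 0 of 74 and 0 of 61 reads there, where 3 reads would be 4.05% and 4.92% and the Wilson interval reaches 4.93% and 5.92%. The share of the star arm had a median of 1.09% over the 342 entries with at least 100 reads on both arms and in both replicates in sum. Of these, 37 had a larger star share than miR-292a (23.3% ± 0.090, SD, n = 2), 67 than miR-291a and 217 than miR-302b. The median and these counts take entries with the same mature sequence separately.

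**Figure D3:**
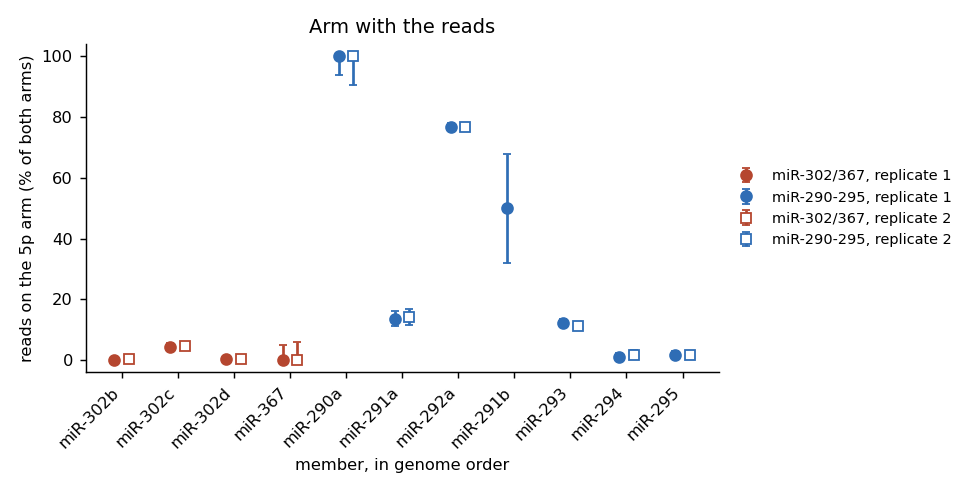
Reads on the 5p arm as percent of the reads on both arms, for each member in genome order, with filled circles for replicate 1, open squares for replicate 2 and 95% Wilson intervals as bars. MiR-290a and miR-292a lie above 75% and all members of the miR-302 cluster below 5%, and miR-291b is shown for replicate 1 alone, since its hairpin in replicate 2 lacks the 5p arm.

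By seed, AAGUGCU accounted for 73.6% ± 0.42 of the mature reads of the members, CUCAAAC for 13.5% ± 0.51, GUGCCGC for 8.05% ± 0.11 and AGUGCUU for 4.57% ± 0.18 (SD, n = 2 for each). Over all entries the seed AAGUGCU held 0.408% and 0.398% of mature reads, a mean of 0.403% ± 0.0068 (SD, n = 2), and these were the same 5 members, since no other entry had this seed. The seed of miR-291b-3p, AAGUGCA, was shared with miR-350-5p (41.5 and 45.6 RPM), which lay above miR-291b-3p in each replicate. The seed that miR-367-3p had in replicate 2, AUUGCAC, was shared with 6 other entries of the miR-25/92 family. Of these, miR-92a-1-3p had 20362 and 23348 RPM, miR-92a-2-3p 16129 and 18779 RPM, miR-25-3p 9675 and 11464 RPM, miR-363-3p 362 and 349 RPM, miR-92b-3p 179 and 229 RPM and miR-32-5p 206 and 149 RPM. Summed, with miR-92a-3p at both of its entries, this family exceeded miR-367-3p 3133 times in replicate 1 and 4280 times in replicate 2. Both entries of miR-92a-3p have the same mature sequence, so these ratios count shared reads more than once. With each sequence counted once, the family held 152142 and 170805 mature reads, against 74 and 61 of miR-367-3p.

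The 6 letters AAGUGC, which lie within the seed AAGUGCU, were then sought on the listed strand of every mature sequence, after the member sequences had been seen. They occurred in 16 of 620 entries (2.58%), 8 of them members. They began at nucleotide 1 in miR-302c-3p, at nucleotide 2 in miR-302b-3p, miR-302d-3p, miR-291a-3p, miR-291b-3p, miR-294-3p and miR-295-3p, and also in miR-350-5p and miR-467b-5p (listed in replicate 1 alone) outside the clusters. At nucleotide 3 they were found in miR-17-5p, miR-20a-5p, miR-20b-5p, miR-93-5p and miR-106a-5p, the cell-cycle miRNAs of the miR-17 family, which are shown for the register of the letters relative to the seed.
miR-17-5p: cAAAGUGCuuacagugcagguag
miR-20a-5p: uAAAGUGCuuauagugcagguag
In this family the seed is AAAGUGC, shifted by 1 base from that of miR-302b-3p.

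Entries with the letters at nucleotide 3 held 1.55% ± 0.0037 of mature reads (SD, n = 2), those at nucleotide 2 0.419% ± 0.023 and those at nucleotide 1 0.0250% ± 0.0013. The first value counts miR-17-5p at 2 overlapping hairpins with the same reads. With each of its 5 sequences counted once, the group held 60676 and 58235 mature reads, against 21438 and 20301 in all members with the letters, a ratio of 2.83 in replicate 1 and 2.87 in replicate 2. The 6 names of the miR-17 family held 2.23% ± 0.080 of mature reads with each sequence once (SD, n = 2), of which miR-106b was listed by its 3p arm (3659 and 4554 RPM), which lacks the letters. Precursors of 10 of the 11 member names held the letters, miR-367 being the exception, against 4.52% of all entries. In miR-293 they began 1 base before the mature sequence, so miR-293-3p itself lacks them. In miR-292a they began at nucleotide 1 of the 3p arm as listed, the star arm of this hairpin, with 1064 and 1089 reads. Star arms were not searched, so the shares and read totals by place of the letters leave these reads out.

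**Figure D4:**
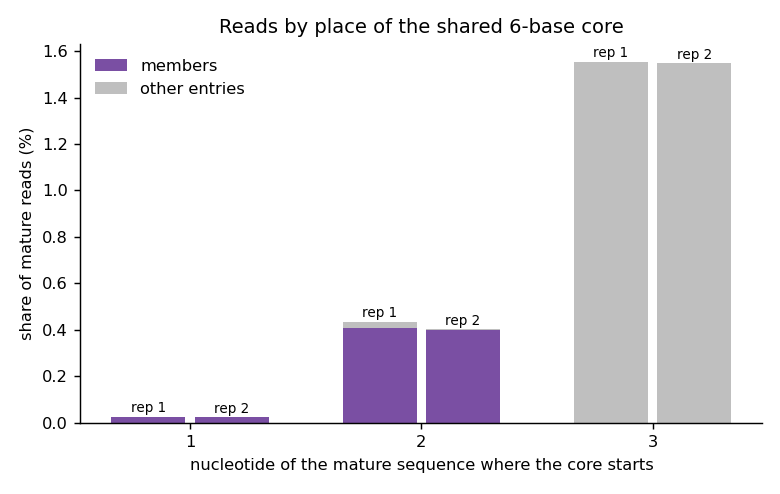
Share of mature reads (%) on entries with the letters AAGUGC starting at nucleotide 1, 2 or 3 of the mature sequence, in each replicate, with members in purple and other entries in grey. Nearly all reads at nucleotide 2 belong to members (0.408% of 0.435% in replicate 1 and 0.398% of 0.403% in replicate 2) and those at nucleotide 3 to the miR-17 family, with miR-17-5p counted at both of its entries. Reads on star arms are not counted.

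How far the replicates differed was tested for 431 entries, those that both tables list and whose mature reads sum to 20 or more, by an exact binomial test with Benjamini-Hochberg adjustment over all 431. Of the 10 members tested 1 differed, against 41.1% of all entries tested (177 of 431, with 27.6% higher in replicate 2 and 13.5% higher in replicate 1). It was miR-302d-3p, higher in replicate 1, with a log2 ratio of replicate 2 over replicate 1 of -0.11 (adjusted p = 3.2e-06, exact binomial test). Of the 187 entries that reached 1000 mature reads in each replicate, 96 had a larger absolute log2 ratio than it. MiR-302b-3p, with more reads, had a log2 ratio of 0.025 (adjusted p = 0.36, same exact test). The largest ratio among the members was that of miR-290a-5p, -0.61, from 58 and 37 reads (adjusted p = 0.11, exact binomial test). The median absolute log2 ratio was 0.068 over the members and 0.19 over all entries tested. When the libraries were scaled by edgeR's TMM factors or by those of DESeq2, miR-302c-3p differed as well, at a log2 ratio of -0.16 (adjusted p = 0.015) and -0.17 (adjusted p = 0.0090, both by the exact binomial test). The test covers counting error and compares these libraries, not conditions.

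**Figure D5:**
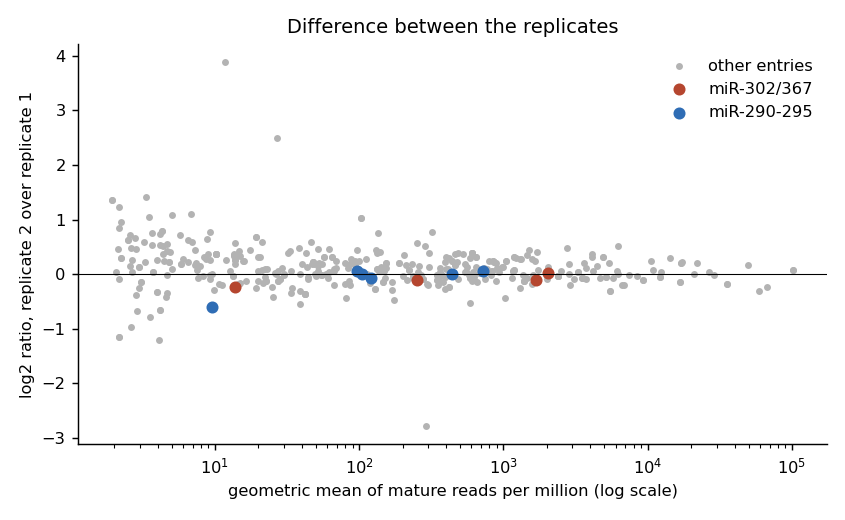
Log2 ratio of replicate 2 over replicate 1 against the geometric mean RPM (log scale) for the 431 entries tested, with members of the miR-302 cluster in red and of the miR-290 cluster in blue. The members lie near 0 except miR-367-3p and miR-290a-5p, those with the fewest reads, at -0.24 and -0.61.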

How the data were processed

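Small RNA of WT E9.5 hearts was sequenced to 50 nt from one end. By the methods of the study, the authors ran miRDeep2 on the cleaned reads, with mm9 as the genome. They deposited raw read counts of each known precursor and of its mature, loop and star parts, without normalization, together with a rounded miRDeep2 score, a log-odds score. Versions, trimming and length filters are not given in the sources used here.

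Positions were brought to coordinates that count from 1, and all 568 and 523 precursors then matched NCBIM37, the assembly of mm9. Where a table states that its mature reads come from the star arm of the miRBase name, that arm gave the entry its name. Rows of the replicates made 1 entry when their overlap, on one strand, covered 50% or more of each precursor. Python 3.11.15, scipy 1.17.1, edgeR 4.0.16 and DESeq2 1.42.0 were used, the latter pair for scaling factors. The exact binomial test was tested on simulated data. No column of per-sample values was left out. Named entries were all members, entries sharing a member's seed, the miR-17 and miR-25/92 families, the nearest entries in rank (some are left out here) and the marker miRNAs, which were compiled without a literature search. Members and lists were chosen with earlier results of these data known. As alternatives, mature sequences were counted once, all precursor reads were used, and further settings raised read minimums, changed scaling, shortened the seed or left out a replicate.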

Additional observations from a re-analysis of the deposited data

How the results depend on the processing

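No paired analysis was possible because there is 1 group of samples. With each mature sequence counted once, the total of mature reads is smaller, and the share of the miR-302 cluster moved to 0.544%, that of the miR-290 cluster to 0.206% and that of the seed AAGUGCU to 0.552%. With all reads of the precursor these were 0.389%, 0.176% and 0.395%, and the ratio of the clusters was 2.21, since this counts the lesser arm of miR-292a. The seed as nucleotides 2 to 7 gave 0.419%, with miR-291b-3p, miR-350-5p and miR-467b-5p added. Leaving out each replicate gave 0.391% to 0.403% for the miR-302 cluster, 0.149% to 0.152% for the miR-290 cluster, 0.398% to 0.408% for the seed and 2.58 to 2.71 for the ratio. Between 137 of 352 (38.9%, each mature sequence once) and 184 of 432 entries (42.6%, all precursor reads) differed between the replicates. The share was largest with at least 100 mature reads in sum, at 52.5% (178 of 339), against 1 of 9 members. MiR-302d-3p was among the entries that differed under every alternative run. Their split turned with the scaling, from 119 higher in replicate 2 and 58 in replicate 1 to 86 and 92 with edgeR's TMM and 78 and 98 with DESeq2's size factors. Small differences of members changed sign, none past the threshold. Under TMM, log2 ratios became -0.055 for miR-293-3p, -0.049 for miR-295-3p and -0.034 for miR-302b-3p. Under DESeq2's size factors they became -0.0047 for miR-292a-5p, -0.064 for miR-293-3p, -0.0095 for miR-294-3p, -0.059 for miR-295-3p and -0.043 for miR-302b-3p, and with all precursor reads -0.017 for miR-293-3p. Pairing miR-291b by its mature sequence, and leaving out entries whose arm differs between replicates, were added after seeing the data and gave 177 of 432 and 175 of 426 entries. MiR-367-3p, miR-290a-5p and miR-291b-3p, with under 100 reads in each replicate, are limited by depth.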

Other observations

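In the miR-302 cluster the miRDeep2 scores did not scale with the reads. MiR-302b-3p (9949 and 9844 mature reads) had a score of 5000 in both replicates, whereas miR-302d-3p (8603 and 7741) had 2.3 and miR-302c-3p (1281 and 1158) had 1.6. In the miR-290 cluster, miR-292a-5p had 2300 and miR-293-3p 1200 in both replicates, and miR-291a-3p 360 in replicate 1 and 330 in replicate 2. MiR-295-3p had 260 and miR-294-3p 240 in both, so the scores of these members of the miR-290 cluster lay in the order of their reads. That order did not hold for the whole cluster. In replicate 1 miR-290a-5p had a score of 2 at 58 mature reads, and miR-291b-3p a score of 14 at 13. In replicate 2 the scores were 2 for miR-290a-5p, at 37 mature reads, and -3.1 for miR-291b-3p, at 17. Low scores at high counts were not particular to the clusters, since 61 of 193 entries with at least 1000 mature reads in replicate 1, and 60 of 190 in replicate 2, had a score under 10. The cause was not tested.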
